A study of Mus musculus with 18 samples.

Results

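Type I interferon-stimulated antiviral genes are the genes that cells switch on to block viruses, and 47 of them were followed here across 18 libraries of mouse T cells. They were taken by gene symbol, with no measured value in the rule, and all 47 were found among the 52506 genes that the 3 count tables of the study share. Messenger RNA had been profiled in double negative T (DNT) cells, so called because they carry neither CD4 nor CD8. These DNT cells came from CD4+ T cells of wild type mouse spleen and lymph node, and every group had received anti-CD3/CD28 antibody, which triggers the T cell receptor and its costimulator. The study asked how purinergic ligands, that is extracellular ATP and adenosine, act on such cells, and each ligand was given for 6 h. In the first set, 3 libraries with 400 µM ATPgs, an ATP analogue that the study calls non-hydrolysable (WTATPgs), stand against 3 without it (WT). In the second set, 3 libraries with 400 µM adenosine (ADO) stand against 3 without it (DNT). In the last set, 3 libraries with adenosine at the same dose plus 250 nM of an A2aR inhibitor, A2aR being a receptor for adenosine (RA), stand against 3 with that inhibitor alone (R). Nothing in the labels tells whether replicates are separate cultures or mice. The p-values below therefore measure only the spread between libraries, which may be technical.

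Type I interferons bind a receptor encoded by Ifnar1 and Ifnar2, whose kinases JAK1 and TYK2 phosphorylate STAT proteins. A complex of STAT proteins, STAT2 among them, with IRF9 binds interferon-stimulated response elements in the promoters of target genes. IRF7, itself a target, feeds back by raising interferon production. Many of these genes also respond to interferon gamma, the type II interferon that activated T cells secrete, so membership of the class does not tell which interferon acted. The 47 genes comprise 5 sensors of viral nucleic acid, 3 genes of the ISG15 protein modifier system, 6 genes of interferon signalling and its regulation, 5 oligoadenylate synthetase (OAS) genes, 5 IFIT genes, 3 IFITM genes, 9 other antiviral effectors and 11 further interferon-induced genes.

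Total counts per library were between 20156082 and 24331577. The defining genes of T cells were present in every library (10 of 10, summed level 1267 to 4101 CPM), against a sum of 5.56 to 23.4 CPM for Cd4, Cd8a and Cd8b1. CPM is the usual depth-scaled count, with TMM factors taken over all 18 libraries together, and log2 fold changes were estimated with edgeR's quasi-likelihood test with Benjamini-Hochberg adjustment over all genes tested, the threshold being an adjusted p of 0.05. Libraries within a group differed unequally. WTATPgs replicate 3 differed from replicates 1 and 2 with a chi-square per degree of freedom of 29 and 29.2, while replicates 1 and 2 differed from each other with 1.7. The R libraries differed from one another with values of 48.9 to 236, and R replicate 3 had ribosomal protein gene transcripts at 273158 CPM, against 125971 and 169085 CPM in the other R libraries. Spread between libraries, as edgeR's common biological coefficient of variation, came to 10.6% for ATPgs, 2.74% for adenosine and 19.6% for adenosine under inhibitor.

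Promoters of 6 members are shown because they carry, or lack, the interferon response motif beside genes whose levels are described below. The sequences are from RefSeq (GRCm38.p6), read 5′ to 3′ on the gene's strand, with 250 bases before the annotated start and 50 after it. Capitals mark each match to GAAANNGAAA or, for the other strand, TTTCNNTTTC, where N is any base. Rsad2 (ENSMUSG00000020641) has its promoter at chr12:26456403-26456702 on the minus strand, Isg15 (ENSMUSG00000035692) at chr4:156200769-156201068 on the minus strand, and Ifit1 (ENSMUSG00000034459) at chr19:34640639-34640938 on the plus strand. For Oas3 (ENSMUSG00000032661) it is chr5:120777610-120777909 on the minus strand, for Eif2ak2 (ENSMUSG00000024079) chr17:78882523-78882822 on the minus strand, and for Oasl1 (ENSMUSG00000041827) chr5:114922990-114923289 on the plus strand.
Rsad2: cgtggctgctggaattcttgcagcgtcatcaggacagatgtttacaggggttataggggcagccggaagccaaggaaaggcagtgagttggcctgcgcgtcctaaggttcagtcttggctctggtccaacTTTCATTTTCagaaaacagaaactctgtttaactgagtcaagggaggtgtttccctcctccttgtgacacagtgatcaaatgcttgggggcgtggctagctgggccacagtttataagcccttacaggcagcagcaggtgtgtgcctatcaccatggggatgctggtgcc
Isg15: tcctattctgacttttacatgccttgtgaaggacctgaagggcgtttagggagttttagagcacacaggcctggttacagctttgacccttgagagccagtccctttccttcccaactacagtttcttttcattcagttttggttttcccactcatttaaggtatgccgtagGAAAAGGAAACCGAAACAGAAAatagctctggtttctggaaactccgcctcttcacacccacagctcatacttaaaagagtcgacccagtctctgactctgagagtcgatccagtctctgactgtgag
Ifit1: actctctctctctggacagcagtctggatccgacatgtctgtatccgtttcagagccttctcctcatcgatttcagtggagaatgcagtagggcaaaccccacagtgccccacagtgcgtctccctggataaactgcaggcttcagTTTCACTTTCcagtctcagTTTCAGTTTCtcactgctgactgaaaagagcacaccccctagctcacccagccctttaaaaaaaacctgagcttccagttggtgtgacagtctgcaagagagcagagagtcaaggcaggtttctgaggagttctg
Oas3: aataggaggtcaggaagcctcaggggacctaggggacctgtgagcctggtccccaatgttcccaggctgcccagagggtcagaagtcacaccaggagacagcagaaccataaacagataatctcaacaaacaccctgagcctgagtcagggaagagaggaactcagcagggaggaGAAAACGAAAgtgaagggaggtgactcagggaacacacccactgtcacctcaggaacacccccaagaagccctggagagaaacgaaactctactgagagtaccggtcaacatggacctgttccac
Eif2ak2: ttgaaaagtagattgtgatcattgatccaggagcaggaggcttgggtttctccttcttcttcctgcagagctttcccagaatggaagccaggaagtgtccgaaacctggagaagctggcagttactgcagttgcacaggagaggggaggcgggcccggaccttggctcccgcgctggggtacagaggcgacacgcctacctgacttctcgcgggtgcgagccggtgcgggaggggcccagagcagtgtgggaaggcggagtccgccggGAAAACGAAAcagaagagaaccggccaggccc
Oasl1: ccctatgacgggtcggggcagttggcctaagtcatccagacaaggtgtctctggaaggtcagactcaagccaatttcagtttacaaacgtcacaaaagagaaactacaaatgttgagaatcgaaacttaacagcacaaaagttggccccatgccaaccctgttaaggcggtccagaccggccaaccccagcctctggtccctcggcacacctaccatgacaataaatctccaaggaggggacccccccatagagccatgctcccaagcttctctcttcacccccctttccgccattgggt
The Isg15 promoter held 3 matches that overlap each other, starting 78, 72 and 66 bases before the start site, and the Ifit1 promoter held 2, at 104 and 85 bases before it. Rsad2 had its match 120 bases before the start and Oas3 75 bases before it, whereas in Eif2ak2 the match lay 18 bases after the start, and the Oasl1 window held none. Of the 47 members 37 had a RefSeq promoter in the table used, and 17 of these (45.9%) held the motif on either strand, against 1079 of all 27025 genes with a promoter (3.99%). Among members with a promoter, the motif was found in 13 of the 30 that rose with adenosine and in 4 of the 7 that did not. A match describes these letters only and does not show that a factor bound there.

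With adenosine the antiviral genes nearly all rose, and with adenosine under the inhibitor those that passed the test all fell. With ATPgs their counts were near those of all genes: of 46 members tested, 9 rose (19.6%) and 9 fell (19.6%), where 17.7% of all genes tested rose and 19.4% fell. The median log2 fold change of the members was −0.01, against −0.00 for all genes. With adenosine 40 of 47 members rose and 1 fell, where 25.5% of all genes rose and 24.6% fell, and the median was 0.45, against 0.00 for all genes. In adenosine with inhibitor over inhibitor alone, 0 of 43 members rose and 16 fell, where 0.287% of all genes rose and 0.855% fell, and the median was −0.70, against −0.04. The count of members that rose was also 0 at an unadjusted p under 0.05 in edgeR, and 0 with DESeq2 and with limma-voom. Higher levels of a transcript per cell and a larger share of cells that carry it cannot be told apart in these bulk libraries.

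**Figure D1:**
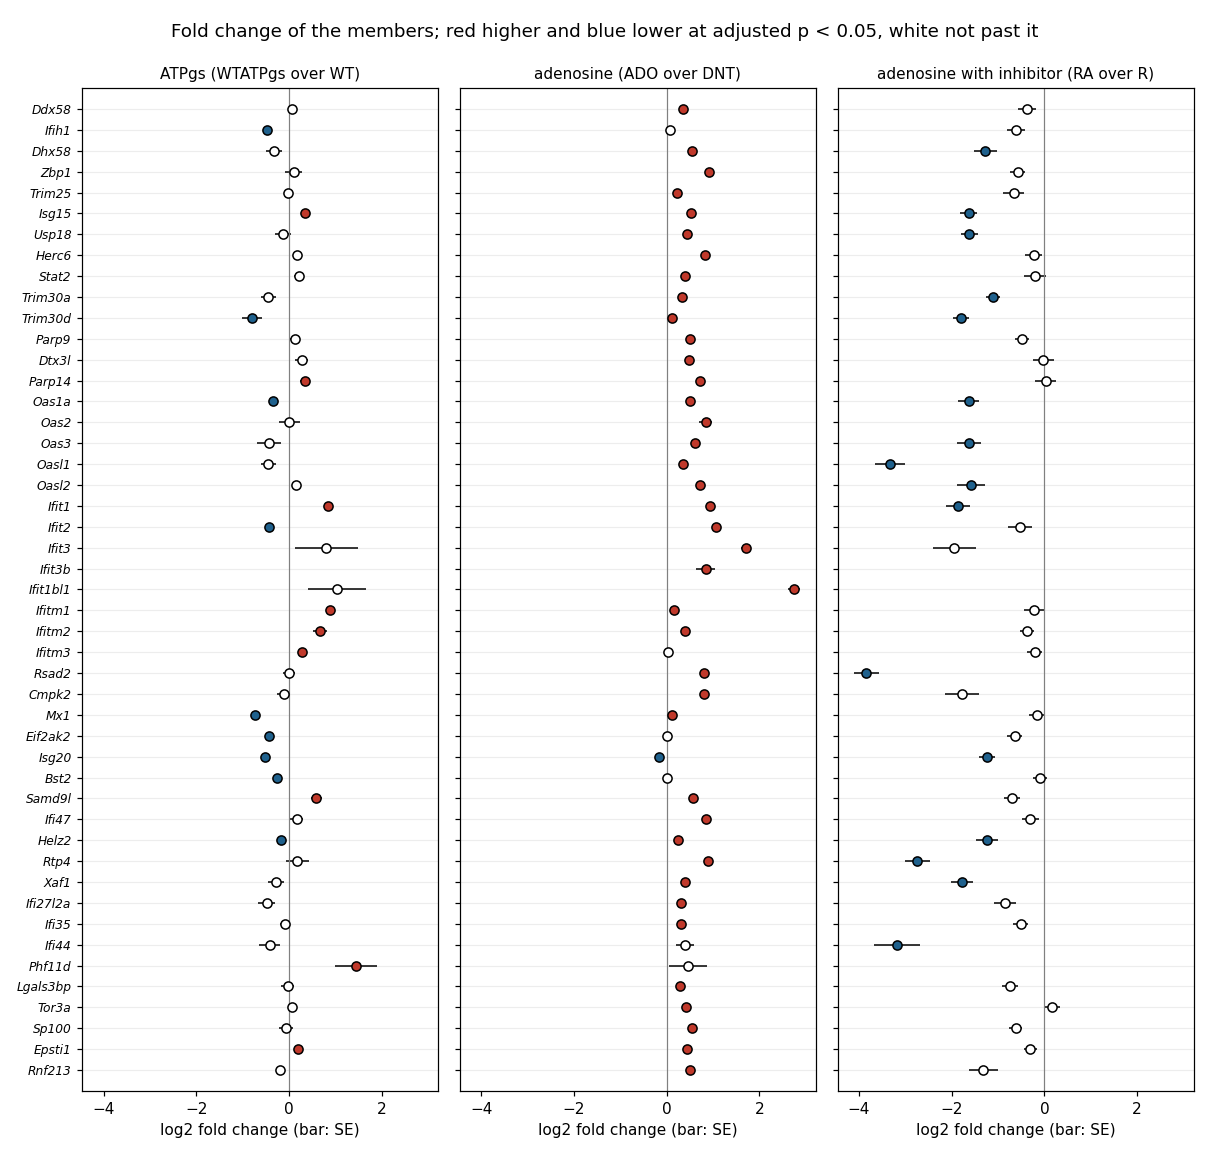
Log2 fold change (horizontal axis, bar: SE, 3 libraries per group) of each member in WTATPgs over WT, ADO over DNT and RA over R, ordered by role from sensors at the top to further interferon-induced genes at the bottom; red points are higher and blue points lower at an adjusted p under 0.05, white points did not pass, and untested members have no point. Red points fill the adenosine column (40 of 47), blue points and none in red appear under inhibitor (16 of 43), and the ATPgs column holds 9 of each.

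Counting genes whose libraries did not overlap between groups gave the same picture of adenosine and a wider one under inhibitor. With adenosine every ADO library was above every DNT library for 40 of 47 members and below for 1, where 29% and 26.7% of all genes were so arranged. With adenosine and inhibitor every RA library was above every R library for 1 of 43 members and below for 31, where the shares of all genes were 11.6% and 10.1%. With ATPgs the counts were 10 above and 13 below of 46, near the shares of all genes, which were 23.6% and 27.5%.

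In single libraries the median of the 47 genes, as log2(CPM + 0.5) relative to the libraries without ligand, was 0.47, 0.47 and 0.46 in the ADO replicates and between −0.02 and 0.00 in the DNT replicates. It was −0.68, −0.71 and −0.56 in the RA replicates, against 0.06, −0.09 and 0.03 in the R replicates. In the WTATPgs replicates it was −0.16, −0.16 and 0.08, against 0.01, −0.01 and −0.01 in the WT replicates. The adenosine libraries thus stood together above their controls and the RA libraries together below theirs, while WTATPgs replicate 3 lay on the opposite side of its controls from replicates 1 and 2. Without WTATPgs replicate 3, 11 members rose and 20 fell of 46 with ATPgs (23.9% and 43.5%), where 26.9% of all genes rose and 26.9% fell in the same fit, and the median of the members was −0.14.

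**Figure D2:**
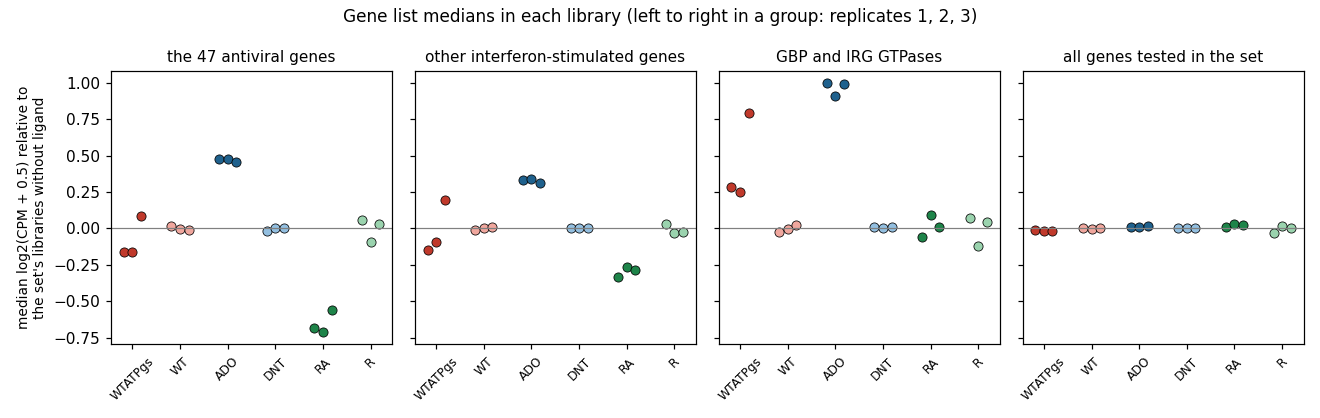
Median over a gene list of log2(CPM + 0.5) in each library, relative to the mean of the libraries without ligand in the same set (vertical axis); points within a group are replicates 1 to 3 from left to right. The 47 antiviral genes stood at 0.47, 0.47 and 0.46 in ADO and at −0.68, −0.71 and −0.56 in RA, the GBP and IRG GTPases stood at 0.997, 0.912 and 0.995 in ADO and at −0.06, 0.09 and 0.01 in RA, and the all-gene median stayed near 0.

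The sensors of viral nucleic acid rose with adenosine in 4 of 5 cases, and in each of the 5 the effect of adenosine was lower under inhibitor, although for Ddx58, Ifih1 and Trim25 that difference did not hold when single libraries were left out. It was lost for Ddx58 in 11, for Trim25 in 9 and for Ifih1 in 7 of the 12 fits that each left out 1 library, with adjusted p of 0.0559 to 0.132 in those fits. Zbp1 (ENSMUSG00000027514, chr2:173206612-173218923), which senses Z-form nucleic acid and triggers cell death, had 186, 188 and 186 CPM with adenosine, against 98.9, 98.4 and 98.1 CPM without, and rose by 0.91 ± 0.03 (adjusted p = 5.15e-32), the smallest p of any member there. The ADO libraries lay close together and far above the DNT libraries. Under inhibitor it had 51.6, 53.8 and 45.8 CPM with adenosine, against 79.4, 63.4 and 79.3 CPM without, a log2 fold change of −0.58 ± 0.16 that did not pass (adjusted p = 0.142). Zbp1 passed there without R replicate 2 or R replicate 3 (adjusted p = 0.0151 to 0.0495). With ATPgs it had 87.7, 91.5 and 138 CPM, against 99.9, 101 and 96.3 CPM in WT, so that 1 ATPgs library was above and 2 were below every WT library. Its ATPgs fold change was 0.10 ± 0.18 (adjusted p = 0.713), and without WTATPgs replicate 3 it turned to −0.13 (adjusted p = 0.00123).

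Trim25 (ENSMUSG00000000275, chr11:88999376-89020293), a ubiquitin ligase that activates RIG-I, had the highest CPM of the sensor group, with 205, 199 and 199 CPM in ADO, against 174, 172 and 171 CPM in DNT. The groups did not overlap and it rose by 0.22 ± 0.03. With 63.8, 60.7 and 69.5 CPM in RA, against 91.4, 134 and 74.5 CPM in R, it was lower in each RA library than in any R library without passing the test (−0.67 ± 0.23, adjusted p = 0.254). That fall passed without R replicate 3 (adjusted p = 0.00282). Dhx58, the regulatory member of the RIG-I-like receptors, rose by 0.54 ± 0.05 with adenosine and fell by 1.27 ± 0.24 under inhibitor, the fall being lost without R replicate 1, RA replicate 1, RA replicate 2 or RA replicate 3 (adjusted p = 0.176 to 0.224). Ifih1, which encodes the long RNA sensor MDA5, fell by 0.47 ± 0.09 with ATPgs and did not pass with adenosine (0.07 ± 0.04). Ddx58, the gene of RIG-I itself, rose by 0.36 ± 0.03 with adenosine.

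All 3 genes of the ISG15 system rose with adenosine, and 2 of them fell with adenosine under inhibitor. Usp18 (ENSMUSG00000030107, chr6:121245906-121270917), the protease that removes ISG15 and restrains the interferon receptor, had 102, 99.7 and 102 CPM in ADO, against 73.2, 75.9 and 74.4 CPM in DNT (rise of 0.44 ± 0.03). In contrast it had 14.8, 15.5 and 14.8 CPM in RA, against 51.6, 45.2 and 38.8 CPM in R, and fell by 1.62 ± 0.18 (adjusted p = 0.00225). The highest RA library was below the lowest R library by more than the spread among the R libraries. In WTATPgs it had 15.3, 14.6 and 23.2 CPM, against 21.3, 18.4 and 18.8 CPM in WT, and did not pass (−0.13 ± 0.18); WTATPgs replicate 3 was again the high one.

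Isg15 itself, a ubiquitin-like modifier attached to viral and cellular proteins, rose with both ligands, by 0.35 ± 0.05 with ATPgs and 0.52 ± 0.04 with adenosine, and fell by 1.63 ± 0.19 (adjusted p = 0.00261) with adenosine under inhibitor. It had 10.1, 10.8 and 10.2 CPM in RA, against 37.2, 25.5 and 32.6 CPM in R. Its promoter, shown above, held more copies of the response motif than the other 5 printed. Herc6, the mouse ligase that attaches ISG15, rose by 0.82 ± 0.07 with adenosine and passed in neither of the other ligand comparisons, and its counts are uncertain because 12.5% of its 50-base stretches are shared with another annotated gene.

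The 6 genes of interferon signalling and its regulation each rose with adenosine. Parp14 (ENSMUSG00000034422, chr16:35832874-35871544), an ADP-ribosyltransferase that modulates interferon and STAT6 responses, had 259.9, 253 and 263 CPM in ADO, against 151, 156 and 159 CPM in DNT, and rose by 0.73 ± 0.03 (adjusted p = 2.14e-29). With ATPgs it had 139.6, 144 and 188 CPM, against 126, 122 and 125 CPM in WT, and rose by 0.34 ± 0.11 (adjusted p = 0.0434), a call that was lost without WT replicate 1, WT replicate 2, WT replicate 3 or WTATPgs replicate 2 (adjusted p = 0.0544 to 0.129). Its levels in RA (53.0, 48.2 and 54.1 CPM) and in R (52.1, 61.5 and 35.3 CPM) overlapped, with a log2 fold change of 0.02 ± 0.22. Parp14 thus showed no detectable fall under inhibitor, and the difference between the effects did not pass (−0.71 ± 0.21, adjusted p = 0.0848), but passed without R replicate 3 (adjusted p = 3.69e-05).

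Trim30a (ENSMUSG00000030921, chr7:104409025-104465193) and Trim30d (ENSMUSG00000057596, chr7:104470014-104507849), neighbouring genes of a TRIM family that in mouse damps inflammatory signalling, fell under inhibitor. Trim30d had 7.12, 8.64 and 8.53 CPM in RA, against 27.8, 25.1 and 30.4 CPM in R, and fell by 1.80 ± 0.17 (adjusted p = 0.00124), with no overlap. It also fell with ATPgs, by 0.80 ± 0.21 (adjusted p = 0.0275), having 12.8, 10.3 and 19.2 CPM, against 25.6, 24.4 and 24.4 CPM in WT. That call was lost without WT replicate 1, WT replicate 2, WT replicate 3 or WTATPgs replicate 1 (adjusted p = 0.0758 to 0.11). Yet with adenosine alone it rose by 0.12 ± 0.04, with 59.6, 57.0 and 55.0 CPM in ADO, against 53.8, 51.6 and 51.4 CPM in DNT, the smallest rise among the 6, lost without DNT replicate 2 or ADO replicate 1 (adjusted p = 0.0531 to 0.0975). Trim30a had 257, 244 and 251 CPM in ADO, against 192, 197 and 205 CPM in DNT (rise of 0.34 ± 0.03). In RA it had 56.2, 61.8 and 64.7 CPM, against 142, 121 and 125 CPM in R, and fell by 1.11 ± 0.16 (adjusted p = 0.00837), a call lost without R replicate 1, RA replicate 1, RA replicate 2 or RA replicate 3 (adjusted p = 0.0757 to 0.105). With ATPgs Trim30a had 69.3, 64.8 and 101 CPM, against 106, 109 and 108 CPM in WT, and did not pass (−0.45 ± 0.17); every ATPgs library was below WT, replicate 3 only slightly. The 2 genes share 5.98% and 7.49% of their 50-base stretches with other genes, mostly each other. Stat2, which encodes a STAT protein of the complex with IRF9, rose by 0.39 ± 0.04 with adenosine, while its partner genes are given below. Parp9 and Dtx3l, which encode a complex that strengthens interferon signalling, rose by 0.51 ± 0.03 and 0.48 ± 0.03; their transcripts overlap by 458 bases on opposite strands, and whether the counting used strand is not given.

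The OAS family, whose products make the oligoadenylate messenger that activates RNA degradation, rose with adenosine in 5 of 5 genes and fell in 4 of 4 tested under inhibitor. Oas3 (ENSMUSG00000032661, chr5:120753098-120777661), the one with the highest CPM, had 146, 148 and 150.1 CPM in ADO, against 96.2, 96.2 and 96.3 CPM in DNT (rise of 0.62 ± 0.03). The DNT libraries were nearly equal and all below the ADO libraries. In RA it had 8.48, 7.01 and 5.84 CPM, against 14.4, 25.5 and 25.4 CPM in R, and fell by 1.63 ± 0.25 (adjusted p = 0.0146), a call lost without RA replicate 1, RA replicate 2 or RA replicate 3 (adjusted p = 0.0694 to 0.15). In WTATPgs it had 23.3, 25.5 and 44.9 CPM, against 42.6, 43.3 and 41.1 CPM in WT, a log2 fold change of −0.43 ± 0.26 that did not pass (adjusted p = 0.264); 2 of the 3 ATPgs libraries were well below WT and replicate 3 was not.

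Oasl1 (ENSMUSG00000041827, chr5:114923240-114937915), an OAS-like protein that represses translation of Irf7 in mouse, had the largest fall of the OAS genes tested under inhibitor. It had 0.495, 0.642 and 0.515 CPM in RA, against 5.0004, 7.07 and 4.21 CPM in R, and fell by 3.33 ± 0.33 (adjusted p = 0.00132). Every RA library was far below the lowest R library. Without inhibitor it had 42.8, 44.6 and 42.4 CPM in ADO, against 33.0, 33.1 and 35.6 CPM in DNT, and rose by 0.34 ± 0.05. Its promoter window, shown above, held no match to the motif. Oasl2 rose by 0.72 ± 0.05 with adenosine and fell by 1.59 ± 0.31 under inhibitor, and Oas1a rose by 0.50 ± 0.06 and fell by 1.64 ± 0.22. The falls were lost for Oasl2 without R replicate 1, R replicate 2, RA replicate 1, RA replicate 2 or RA replicate 3 (adjusted p = 0.0569 to 0.206) and for Oas1a without R replicate 1, RA replicate 2 or RA replicate 3 (adjusted p = 0.0588 to 0.0844). With ATPgs Oas1a fell by 0.35 ± 0.09, lost without WT replicate 2, WT replicate 3 or WTATPgs replicate 1 (adjusted p = 0.0548 to 0.062). Oas1a shares 57.6% of its 50-base stretches with Oas1g, so its counts are uncertain. Oas2 rose by 0.84 ± 0.14 with adenosine and was at 0.258 CPM or less in each R and RA library, too low to be tested there.

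The IFIT family, which recognises viral RNA ends and stops its translation, had the highest median rise with adenosine of the 8 groups, 1.07 over 5 genes, each of which rose. These genes lie together on chromosome 19, from Ifit2 at 34550694 to Ifit1 at 34650009. Ifit1bl1 (ENSMUSG00000079339, chr19:34592891-34601956) had 11.6, 11.4 and 11.8 CPM in ADO, against 1.57, 1.83 and 1.80 CPM in DNT, and rose by 2.74 ± 0.13 (adjusted p = 6.30e-24), the largest fold change of any member with adenosine. Ifit3 (ENSMUSG00000074896, chr19:34583531-34588731) had 15.9, 17.0 and 17.3 CPM in ADO, against 4.71, 5.78 and 4.85 CPM in DNT, and rose by 1.70 ± 0.10. Both were low without adenosine, and 51.2% of the 50-base stretches of Ifit3 are shared with Ifit3b, which rose by 0.84 ± 0.21. Ifit2 (ENSMUSG00000045932, chr19:34550694-34576419) had 26.4, 26.0 and 26.3 CPM in ADO, against 12.9, 12.7 and 11.9 CPM in DNT, and rose by 1.07 ± 0.07, while with ATPgs it had 7.22, 6.87 and 6.41 CPM, against 9.88, 9.17 and 8.71 CPM in WT, and fell by 0.43 ± 0.10. The direction of Ifit2 thus differed between the ligands without overlap of the groups in either, although the ATPgs call was lost without WT replicate 1 (adjusted p = 0.0576).

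Ifit1 rose with either ligand. It had 20.002, 20.5 and 22.9 CPM in WTATPgs, against 12.2, 11.998 and 11.6 CPM in WT, and rose by 0.83 ± 0.07 (adjusted p = 7.96e-05), with WTATPgs replicate 3 close to the other ATPgs libraries. With adenosine it had 36.6, 33.4 and 38.1 CPM, against 17.1, 19.3 and 19.9 CPM in DNT, and rose by 0.93 ± 0.06. Under inhibitor it had 1.36, 1.40 and 2.23 CPM in RA, against 5.96, 5.11 and 7.04 CPM in R, and fell by 1.87 ± 0.26 (adjusted p = 0.00837), a call lost without R replicate 1, RA replicate 1 or RA replicate 2 (adjusted p = 0.0741 to 0.0764). Ifit3 had 0.124, 0.409 and 0.229 CPM in RA, against 1.09, 0.774 and 1.13 CPM in R, and did not pass there (−1.94 ± 0.47, adjusted p = 0.0921). Every RA library of Ifit3 was nonetheless below every R library, and its fall passed without R replicate 3 (adjusted p = 0.0388). Ifit1bl1 had 0.0619, 0.117 and 0.343 CPM in RA, against 1.99, 0.413 and 0.971 CPM in R, too low to be tested in that comparison.

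**Figure D3:**
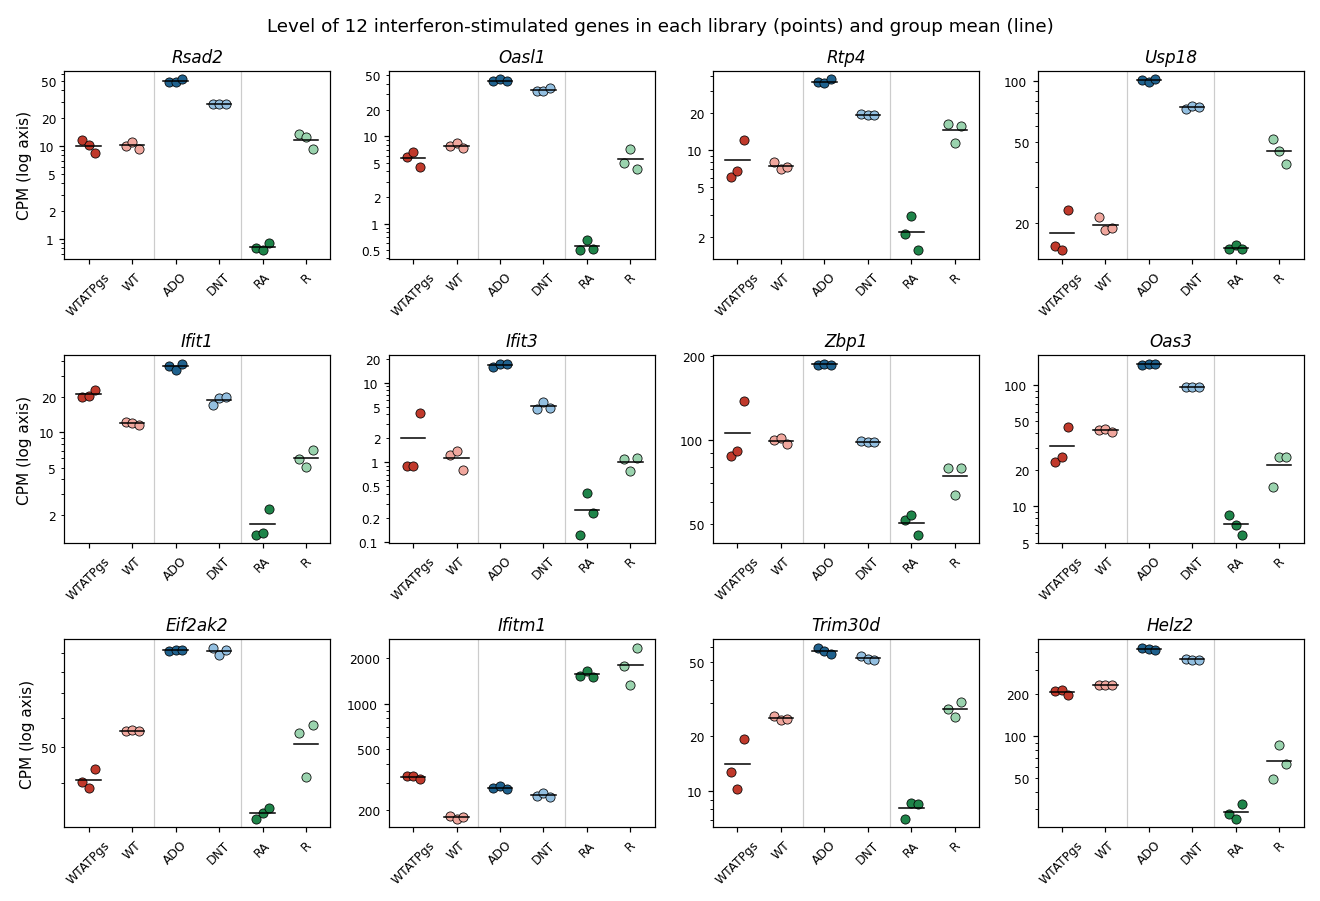
CPM (vertical log axis) of 12 members in each library, as points, with the group mean as a line; the groups from left to right are WTATPgs, WT, ADO, DNT, RA and R, 3 libraries each. The ADO points lie above the DNT points for each gene but Eif2ak2, and the RA points of Rsad2 (0.759 to 0.916 CPM) lie far below those of R (9.30 to 13.4 CPM).

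The IFITM genes, short membrane proteins that hinder viral entry, were the one group of members in which every gene rose with ATPgs (3 of 3). Ifitm1 (ENSMUSG00000025491, chr7:140967221-140969825) had 334, 331 and 318 CPM in WTATPgs, against 182, 174 and 178 CPM in WT, and rose by 0.89 ± 0.04 (adjusted p = 2.00e-06), the smallest p of any member with ATPgs. With adenosine it had 276, 285 and 273 CPM, against 246, 257 and 242 CPM in DNT, a much smaller rise of 0.16 ± 0.02. In RA it had 1531, 1652 and 1508 CPM, against 1785, 1326 and 2349 CPM in R, where the groups overlapped (−0.24 ± 0.22, adjusted p = 0.771). Ifitm2 rose by 0.67 ± 0.16 with ATPgs and 0.39 ± 0.07 with adenosine, and Ifitm3 rose by 0.27 ± 0.08 with ATPgs and did not pass with adenosine (0.04 ± 0.05). None of the 3 passed under inhibitor with edgeR. The ATPgs rise of Ifitm2 was lost without WT replicate 1 or WT replicate 2 (adjusted p = 0.0528 to 0.057) and that of Ifitm3 without WT replicate 1, WT replicate 2, WT replicate 3, WTATPgs replicate 1 or WTATPgs replicate 2 (adjusted p = 0.0536 to 0.122). Of the 50-base stretches of Ifitm2, 48.5% are shared with other annotated genes.

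Among the 9 other antiviral effectors, Rsad2 changed most. It encodes viperin, an enzyme that makes a chain-terminating nucleotide, and lies (ENSMUSG00000020641, chr12:26442746-26456452) beside the nucleotide kinase gene Cmpk2 (ENSMUSG00000020638, chr12:26469204-26479837). Rsad2 had 0.804, 0.759 and 0.916 CPM in RA, against 13.4, 12.4 and 9.30 CPM in R, and fell by 3.85 ± 0.27 (adjusted p = 0.000346), the largest fall of any member in any of the ligand comparisons and a call kept under every alternative run. Without inhibitor it had 48.5, 49.3 and 52.0 CPM in ADO, against 28.3, 28.5 and 28.6 CPM in DNT, and rose by 0.80 ± 0.05. With ATPgs it had 11.6, 10.3 and 8.50 CPM, against 10.1, 10.96 and 9.40 CPM in WT, with overlap (0.01 ± 0.13, adjusted p = 0.973). Rsad2 therefore rose, fell or gave no detectable change depending on the set. Cmpk2 rose by 0.79 ± 0.06 with adenosine, and its lower level under inhibitor (−1.78 ± 0.37) missed the threshold (adjusted p = 0.0595). That fall passed without R replicate 3 (adjusted p = 0.000567).

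Eif2ak2 (ENSMUSG00000024079, chr17:78852564-78882573), which encodes the RNA-activated kinase PKR that halts translation, was among the 6 members that did not pass with adenosine. It had 91.3, 91.8 and 91.7 CPM in ADO, against 92.9, 88.8 and 91.7 CPM in DNT, with a log2 fold change of −0.00 ± 0.03. Its promoter, shown above, holds a match to the motif. In WTATPgs it had 40.3, 38.7 and 43.6 CPM, against 55.3, 55.7 and 55.2 CPM in WT, and fell by 0.43 ± 0.05 (adjusted p = 0.000308) with no overlap. Under inhibitor it had 32.1, 33.3 and 34.2 CPM, against 54.6, 41.5 and 57.3 CPM in R, and did not pass (−0.64 ± 0.17, adjusted p = 0.111). That fall passed without R replicate 2 or R replicate 3 (adjusted p = 0.0142 to 0.0244). With ATPgs falls were also seen for Mx1, a GTPase that traps viral ribonucleoproteins (−0.73 ± 0.10), for the exonuclease gene Isg20 (−0.52 ± 0.07), and for Bst2, whose product tethers virions to the cell surface (−0.26 ± 0.07). Isg20 was the only member that fell in all 3 ligand comparisons, by 0.17 ± 0.04 with adenosine and 1.25 ± 0.18 under inhibitor, the last being lost without R replicate 1, RA replicate 1, RA replicate 2 or RA replicate 3 (adjusted p = 0.0639 to 0.0956). Mx1 rose by 0.11 ± 0.04 with adenosine, a call lost without DNT replicate 1 or ADO replicate 3 (adjusted p = 0.058 to 0.0592). The Bst2 call with ATPgs was lost without WT replicate 1, WT replicate 2, WTATPgs replicate 1 or WTATPgs replicate 2 (adjusted p = 0.0612 to 0.102).

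Ifi47 and Helz2 completed the effectors named. Ifi47 (ENSMUSG00000078920, chr11:49076587-49096974), an immunity-related GTPase, had 155, 150.3 and 156 CPM in ADO, against 82.1, 86.4 and 84.9 CPM in DNT, and rose by 0.86 ± 0.03 (adjusted p = 5.37e-29). It had 98.1, 111 and 105 CPM in RA, against 129.6, 95.2 and 158 CPM in R (−0.30 ± 0.19), with overlap, and 85.7, 86.5 and 124 CPM in WTATPgs, against 87.3, 88.7 and 90.3 CPM in WT (0.16 ± 0.14), so that it passed with adenosine and in neither of the other ligand comparisons. Helz2 (ENSMUSG00000027580, chr2:181227615-181242027), a helicase that acts as a nuclear receptor coactivator, had 431, 420.2 and 418 CPM in ADO, against 357, 354 and 354 CPM in DNT (rise of 0.24 ± 0.02). Under inhibitor it had 27.6, 25.6 and 32.6 CPM, against 49.0, 87.0 and 62.8 CPM in R, and fell by 1.24 ± 0.23 (adjusted p = 0.0358), lost without R replicate 1, RA replicate 1, RA replicate 2 or RA replicate 3 (adjusted p = 0.0757 to 0.222). With ATPgs it had 209, 213 and 197 CPM, against 234, 234 and 235 CPM in WT, a small fall of 0.17 ± 0.04 in which replicate 3 was the lowest library. Samd9l, a growth and viral restriction factor, rose by 0.58 ± 0.12 with ATPgs and 0.56 ± 0.04 with adenosine.

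Of the 11 further interferon-induced genes, 9 rose with adenosine and 3 of 10 tested fell under inhibitor. Rtp4 (ENSMUSG00000033355, chr16:23520291-23614222), a receptor chaperone with antiviral activity, had 2.104, 2.92 and 1.55 CPM in RA, against 16.3, 11.4 and 15.7 CPM in R, and fell by 2.74 ± 0.27 (adjusted p = 0.00132). It had 35.3, 34.7 and 37.3 CPM in ADO, against 19.7, 19.1 and 19.2 CPM in DNT, and rose by 0.88 ± 0.06. The opposite directions were held by every library of both sets. Ifi44 (ENSMUSG00000028037, chr3:151730922-151749960), which restrains cell proliferation, had 0.124, 0.292 and 0.0572 CPM in RA, against 1.60, 1.55 and 1.21 CPM in R, and fell by 3.19 ± 0.50 (adjusted p = 0.0142), with no overlap. With adenosine it had 3.16, 3.36 and 1.98 CPM, against 2.54, 1.83 and 2.03 CPM in DNT, with overlap (0.40 ± 0.20, adjusted p = 0.0872). The fall of Ifi44 was lost without R replicate 1, RA replicate 1 or RA replicate 3 (adjusted p = 0.0968 to 0.115).

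Rnf213 (ENSMUSG00000070327, chr11:119393100-119487418), a giant ubiquitin ligase that coats bacteria and lipid droplets, had 789, 797 and 785 CPM in ADO, against 553, 555 and 565 CPM in DNT, and rose by 0.49 ± 0.02 (adjusted p = 2.00e-28). In RA it had 25.6, 23.8 and 32.9 CPM, against 46.3, 103 and 50.5 CPM in R (−1.32 ± 0.31, adjusted p = 0.0873). All RA libraries were below all R libraries, and R replicate 2 stood well above the other R libraries. The fall of Rnf213 passed without R replicate 2 or R replicate 3 (adjusted p = 0.00286 to 0.0489). The apoptosis factor gene Xaf1 rose by 0.40 ± 0.05 with adenosine and fell by 1.78 ± 0.23 under inhibitor, the fall being lost without R replicate 1, RA replicate 1 or RA replicate 3 (adjusted p = 0.0527 to 0.0592). Tor3a, Epsti1, Sp100, Ifi35, Lgals3bp and Ifi27l2a also rose with adenosine, by 0.28 to 0.55. With ATPgs Epsti1 rose by 0.18 ± 0.06, a call lost without WT replicate 1, WT replicate 2, WT replicate 3 or WTATPgs replicate 2 (adjusted p = 0.0753 to 0.161). Phf11d had less than 1 CPM in each library and rose by 1.45 ± 0.46 with ATPgs, a call lost without WT replicate 1, WT replicate 2, WT replicate 3 or WTATPgs replicate 1 (adjusted p = 0.0624 to 0.135).

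The test of the difference between the adenosine effects with and without the inhibitor placed 36 of 47 members lower under inhibitor and 0 higher, where 3.14% of all genes tested were lower and 0.909% higher. The count of higher effects was also 0 at an unadjusted p under 0.05 in edgeR, with DESeq2 and with limma-voom. The median difference of the members was −1.28 on the log2 scale, against −0.06 for all genes. Rsad2 had the smallest p (−4.66 ± 0.20, adjusted p = 1.21e-07), then Usp18 (−2.07 ± 0.14, adjusted p = 9.06e-06) and Rtp4 (−3.64 ± 0.25, adjusted p = 9.06e-06). Large differences were also found for Oasl1 (−3.69 ± 0.27), Ifit3 (−3.65 ± 0.38) and Ifit1 (−2.81 ± 0.24), although Ifit3 had fewer than 2 CPM in each RA and R library. The 11 members without a detectable difference included Ifitm1 (−0.42 ± 0.23, adjusted p = 0.401), Ifitm3 (−0.27 ± 0.19), Bst2 (−0.11 ± 0.14), Tor3a (−0.27 ± 0.13) and Mx1 (−0.28 ± 0.13). Of the members, 9 rose with adenosine, fell under inhibitor and did not pass with ATPgs (Dhx58, Usp18, Trim30a, Oas3, Oasl1, Oasl2, Rsad2, Rtp4 and Xaf1), and 16 rose with adenosine and passed in neither of the other comparisons. The share of all genes with these patterns was not computed, and the patterns rest on single libraries. Without WTATPgs replicate 3, Dhx58, Usp18, Trim30a, Oas3, Oasl1 and Xaf1 also passed with ATPgs. Of the 16, Ddx58, Zbp1, Ifi27l2a, Lgals3bp, Sp100 and Rnf213 passed with ATPgs without that library, and under inhibitor without R replicate 3. Dtx3l passed with ATPgs without WTATPgs replicate 3. Trim25, Parp9, Ifit3, Cmpk2 and Ifi35 passed under inhibitor without R replicate 3. The inhibitor was present in R as well as RA, and the sets differ in more than the inhibitor, as the levels without ligand show below, so an effect of the inhibitor and a property of the set cannot be told apart.

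**Figure D4:**
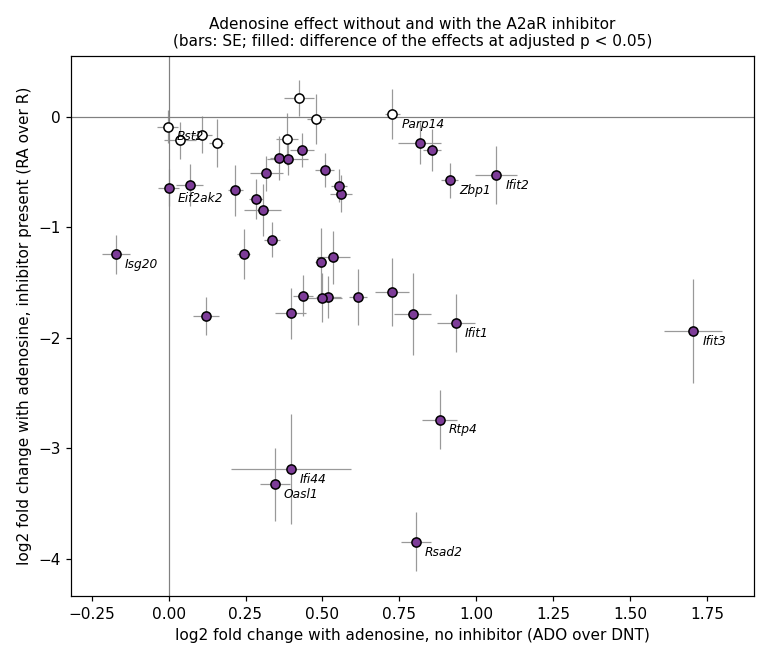
Log2 fold change of 43 members with adenosine in the presence of the A2aR inhibitor (RA over R, vertical axis) and in its absence (ADO over DNT, horizontal axis), with SE bars; filled points have effects that differ at an adjusted p under 0.05. Nearly all points lie right of 0 and below 0, with Rsad2 (0.80 and −3.85), Oasl1 and Ifi44 lowest. Open points such as Parp14 (0.73 and 0.02) lie near the horizontal line.

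How many members fell under inhibitor depended on the library left out. The count of 16 was 7 without R replicate 1, RA replicate 1 or RA replicate 3, 8 without RA replicate 2, 20 without R replicate 2 and 30 without R replicate 3, the library that differed most from R replicate 2. In the same fits 0.236% to 0.297% of all genes fell where the members' count was 7 or 8, 1.14% without R replicate 2 and 7.54% without R replicate 3. Calls for Rsad2, Oasl1, Rtp4, Usp18, Isg15 and Trim30d were kept in each of these. The count of members with a lower effect under inhibitor was steadier, 31 to 40 when any 1 of the 12 libraries was left out, where 1.5% to 9.18% of all genes were lower. Of the 36 calls, 31 were kept in all 12 of these fits, and those of Ddx58, Ifih1, Trim25, Eif2ak2 and Ifi27l2a were each lost in more than 6.

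The effect of ATPgs was lower than that of adenosine for 27 of 47 members and higher for 1, where 9.12% of all genes tested were lower and 8.13% higher. The median difference of the members was −0.56, against −0.01 for all genes. The member with the higher effect was Ifitm1 (0.74 ± 0.05, adjusted p = 4.68e-08). Ifit2 (−1.49 ± 0.11, adjusted p = 1.84e-07), Helz2 (−0.41 ± 0.04), Mx1 (−0.83 ± 0.09) and Oas1a (−0.84 ± 0.10) had lower effects with ATPgs. For Ifit1 the effects did not differ detectably (−0.09 ± 0.11, adjusted p = 0.624), nor for Isg15 (−0.17 ± 0.07) or Samd9l (0.03 ± 0.15). Without WTATPgs replicate 3 the counts were 41 lower and 3 higher, where 18.8% and 14.2% of all genes were so, and without any 1 of the other libraries 19 to 22 lower and 1 higher, where 6.32% to 7.15% and 5.60% to 6.99% of all genes were so. Of the 27 lower effects, 18 were kept in all 12 of these fits, and those of Zbp1, Trim30a, Trim30d, Oas3, Ifi47, Xaf1, Sp100 and Epsti1 were each lost in more than 6. Both ligands were given at 400 µM for 6 h, but to separate sets of cells.

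The level of the antiviral genes without ligand differed widely between the sets. These comparisons share their DNT or WT libraries with those above, so their values are set side by side only. DNT over WT compares libraries with the same treatment label, and there 38 of 46 members were higher and 3 lower in DNT, where 30.8% of all genes were higher and 32% lower. The median log2 fold change was 0.61, against −0.00 for all genes. Mx1 had 74.8, 77.3 and 77.7 CPM in DNT, against 15.8, 14.5 and 15.01 CPM in WT (2.34 ± 0.05, adjusted p = 1.49e-35). Oasl1 (2.13 ± 0.07), Ifit3 (2.15 ± 0.18) and Usp18 (1.93 ± 0.05) were also higher in DNT, whereas Ifih1 (−1.18 ± 0.04), Oas2 (−0.52 ± 0.14) and Ifi27l2a (−0.19 ± 0.06) were lower. The call for Ifi27l2a was lost without WT replicate 3 (adjusted p = 0.106). The libraries of DNT were all above those of WT for 38 members and all below for 4, where 32.6% and 33.7% of all genes were so arranged. The GBP and IRG GTPases, a class of interferon-induced GTPases best known as targets of interferon gamma, went the other way, with 1 of 17 higher and 16 lower in DNT.

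With inhibitor alone, R over DNT, 7 of 46 members were higher and 31 lower, where 30.9% of all genes were higher and 33.4% lower, and the median was −0.84, against −0.05 for all genes. The IFITM genes were higher in R under each scaling tried, Ifitm1 by 2.86 ± 0.24, Ifitm2 by 2.42 ± 0.14 and Ifitm3 by 1.91 ± 0.19. Rnf213 (−3.08 ± 0.32), Oasl2 (−2.87 ± 0.15) and Helz2 (−2.44 ± 0.22), which have long transcripts, were lower. Some members with shorter transcripts had lower levels in R as well, while the IFITM genes, shorter still, were higher. Oasl1, with 2608 bases of exon, had a mean of 5.43 CPM in R, against 33.9 CPM in DNT. Ifit3, with 1745 bases, had a mean of 0.999 CPM in R, against 5.11 CPM in DNT. Fold changes in R over DNT moved with gene length over the whole transcriptome. With genes divided by exon length into 3 classes of equal size, the median of all genes was 0.68 in the shortest, −0.05 in the middle and −0.51 in the longest class. The medians of the members in these classes were −0.19, −0.85 and −1.45. The median of the members was below that of all genes in each length class, and Spearman's rho between length and fold change was −0.48 over 46 members and −0.36 over all genes, as a description. In RA over R, within the set, the members' medians were −0.85, −0.70 and −0.62 from the shortest to the longest class, against −0.09, −0.04 and 0.02 for all genes. All R libraries were above all DNT libraries for 10 members and below for 33, where 35.7% and 38.5% of all genes were so arranged. The inhibitor and the set cannot be told apart in R over DNT, and the part of gene length in it was not tested.

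**Figure D5:**
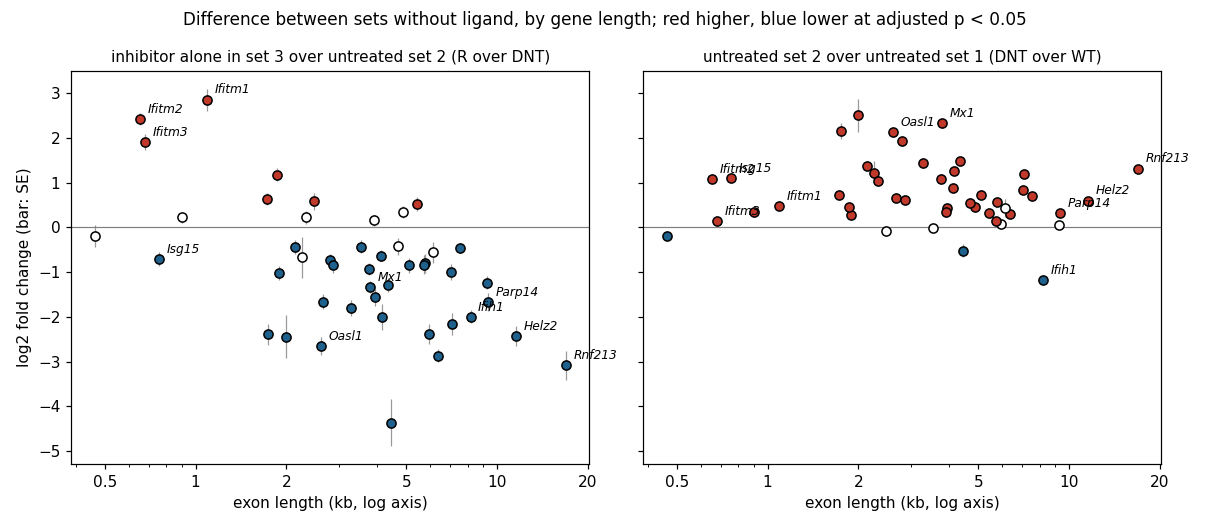
Log2 fold change between sets without ligand (vertical axis, SE bars) by exon length (horizontal log axis, kb), for R over DNT on the left and DNT over WT on the right; red members are higher and blue lower at an adjusted p under 0.05. On the left the short IFITM genes lie at 1.91 to 2.86 and Rnf213, the longest, at −3.08, whereas on the right most members of any length lie above 0.

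Per kilobase of exon, Ifitm1 was the most abundant member in each set without ligand, with 1664 CPM per kb in R, 227 in DNT and 163 in WT. Bst2 followed in DNT (101) and WT (79.5), where Ifitm3 had 68.0 and 61.2 CPM per kb. Isg15 had 13.8 CPM per kb in RA, 42.0 in R, 97.1 in ADO, 67.4 in DNT and 31.5 in WT. Rsad2 was less abundant, at 0.191, 2.70, 11.5, 6.57 and 2.34 CPM per kb in the same groups. The antiviral genes together took 5074 ± 12.4 CPM in ADO, against 3786 ± 19.5 CPM in DNT, and 3021 ± 95.5 CPM in RA, against 3998 ± 546 CPM in R (SD, n = 3 each). In WTATPgs they took 2534 ± 239 CPM, against 2460 ± 16.8 CPM in WT (SD, n = 3 each).

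Transcripts of the type I and type III interferons themselves were nearly absent. The 20 such genes summed to 10 to 15 counts per library in WTATPgs, against 5 to 7 in WT, to 17 to 32 in ADO, against 28 to 37 in DNT, and to 1 or 2 in RA, against 4 to 8 in R. No library had more than 6 counts of Ifnb1, and 7 of the 20 genes had 0 counts in every library. With adenosine, where the antiviral genes rose, the only interferon gene with enough counts for a test, Ifna4, fell (−1.28 ± 0.49, adjusted p = 0.0252). The 7 markers of plasmacytoid dendritic cells, a main source of type I interferon, summed to 21.8 to 31.5 CPM in WTATPgs, against 19.0 to 21.5 CPM in WT, to 16.7 to 21.1 CPM in ADO, against 17.97 to 18.8 CPM in DNT, and to 13.9 to 15.9 CPM in RA, against 12.3 to 20.5 CPM in R. Siglech, the defining marker, had 0 counts in every library. The transcription factor gene Tcf4 rose by 0.73 ± 0.13 with ATPgs and 0.28 ± 0.08 with adenosine, and Pacsin1 fell by 1.34 ± 0.27 and 1.68 ± 0.21. No other marker on that list passed in a ligand comparison, and their part in the antiviral gene results was not tested. Ifng, the interferon gamma gene, fell with both ligands, by 1.34 ± 0.14 with ATPgs and 1.32 ± 0.02 with adenosine, and did not pass under inhibitor (−0.52 ± 0.30, adjusted p = 0.568).

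Of 9 tested genes of interferon receptors and JAK-STAT signalling, 6 rose and 2 fell with ATPgs, 5 rose and 1 fell with adenosine, and 1 rose under inhibitor. Ifngr1, a chain of the interferon gamma receptor, rose by 2.01 ± 0.06 with ATPgs and 1.52 ± 0.03 with adenosine. Ifngr2 rose by 0.95 ± 0.07 with ATPgs, 0.45 ± 0.11 with adenosine and 1.08 ± 0.21 under inhibitor. Ifnar1 and Ifnar2 rose with both ligands, by 0.35 and 0.34 with ATPgs and by 0.22 and 0.16 with adenosine. Jak2, which serves interferon gamma rather than type I interferon, fell by 0.99 ± 0.05 with ATPgs and 0.77 ± 0.02 with adenosine. Irf9 passed in none of the 3 ligand comparisons.

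Among 6 interferon regulatory factors, Irf7 followed the antiviral genes. It had 96.3, 99.0 and 99.6 CPM in ADO, against 53.1, 51.0 and 54.5 CPM in DNT (rise of 0.89 ± 0.04), and 6.31, 6.25 and 5.89 CPM in RA, against 23.6, 25.8 and 19.4 CPM in R (−1.93 ± 0.19, adjusted p = 0.00132). The effects of adenosine with and without inhibitor differed (−2.83 ± 0.15, adjusted p = 7.75e-07). Irf1 rose by 0.48 ± 0.06 with ATPgs and 0.47 ± 0.03 with adenosine. Of the 6 negative regulators, Socs3 rose by 1.28 ± 0.09 and 0.59 ± 0.06, and Socs1 by 0.66 ± 0.08 and 0.20 ± 0.04, with ATPgs and with adenosine, while the phosphatase gene Ptpn6 fell by 0.25 ± 0.04 and 0.34 ± 0.03. Of 10 tested adaptors and kinases of nucleic acid sensing, 1 rose with ATPgs (Tbk1, 0.17 ± 0.05), 4 rose with adenosine, among them Tmem173, the gene of STING (0.21 ± 0.03), and of 9 tested under inhibitor 0 passed in edgeR, with 0 also at an unadjusted p under 0.05.

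A further 49 interferon-stimulated genes were followed beside the 47. Of those tested, 41 of 47 rose and 4 fell with adenosine (median 0.33), 0 of 45 rose and 3 fell under inhibitor (median −0.33), and 6 of 48 rose and 6 fell with ATPgs. Those that fell under inhibitor were the nucleic acid sensor gene Mndal (−1.72 ± 0.19), the chemokine gene Cxcl10 (−1.78 ± 0.24) and Ifi209 (−1.13 ± 0.17). The effect under inhibitor was lower than without for 23 of 47 of them. The GBP and IRG GTPases rose with adenosine in 16 of 16 cases, with a median of 0.98, and with ATPgs in 7 of 17 (median 0.52), and 0 of 16 passed under inhibitor in edgeR (median −0.04), where 1 was higher and 2 lower at an unadjusted p under 0.05. Gbp2 rose by 1.32 ± 0.03 with adenosine, Gbp7 by 1.05 ± 0.03 and Iigp1 by 0.93 ± 0.03. The effect of adenosine was lower under inhibitor for 14 of 16 of these GTPases.

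Other measures moved with some of these results. In WTATPgs replicates 1 and 2 the 13 markers of macrophages, monocytes and dendritic cells summed to 80.5 and 82.9 CPM, against 41.8 CPM in replicate 3 and 32.7 to 35.3 CPM in WT. Among the 9 of them with enough counts for a test, 4 rose with ATPgs and 1 fell, and Cd209a had 0 counts in every library. Markers of neutrophils (6 genes) summed to 105, 109 and 21.8 CPM in WTATPgs, against 24.9 to 29.2 CPM in WT, and those of B cells (7 genes) to 16.4, 18.4 and 4.14 CPM, against 6.50 to 7.12 CPM. With adenosine the macrophage-type markers summed to 33.0 to 37.3 CPM in ADO, against 22.9 to 23.2 CPM in DNT, with 5 of 6 tested higher and 1 lower, and the B cell markers to 1.74 to 2.37 CPM in ADO, against 1.45 to 2.20 CPM in DNT. Under inhibitor the macrophage-type sums were 33.8 to 38.5 CPM in RA, against 24.1 to 30.1 CPM in R. The 4 NK cell markers summed to 260 to 272 CPM in ADO, against 337 to 345 CPM in DNT, where Eomes, a gene that T cells can also express, fell by 0.39 ± 0.02, Klrb1c fell by 1.005 ± 0.16 and Klre1 rose by 0.38 ± 0.08. With ATPgs their sum was 95.6 to 113 CPM, against 97.9 to 103 CPM in WT, and Eomes fell by 0.13 ± 0.04. Under inhibitor it was 295 to 305 CPM in RA, against 272 to 418 CPM in R, and Ncr1 fell by 2.93 ± 0.29, with 11, 15 and 16 counts in RA, against 103, 88 and 95 counts in R. The T cell markers summed to 1661 to 1681 CPM in ADO, against 1482 to 1511 CPM in DNT, with 7 of 10 higher and Cd5 lower, and with ATPgs to 1267 to 1351 CPM, against 1358 to 1381 CPM in WT, with Cd5 and Trbc2 lower. Ribosomal protein genes fell with ATPgs in 62 of 80 cases, and mitochondrially encoded genes rose in 7 of 12 with ATPgs and fell in 6 of 12 with adenosine. The part of these cells and of RNA quality in the antiviral gene results was not tested.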

How the data were processed

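RNA sequencing of 18 libraries was analysed from 3 gene tables, 1 for each set, whose values are raw read counts per Ensembl gene as deposited by the authors. Reads were aligned with HISAT2 2.1.0 to GRCm38, per the submitters' processing notes. The sources used here do not name the counting tool, the annotation release or the strandedness. Of the IDs in the tables, 99.7% to 99.8% were found in GENCODE M21, which gave symbols, places and exon lengths. Genes were kept with edgeR's filterByExpr, scaled with TMM factors and tested with edgeR 4.0.16's robust quasi-likelihood test in R 4.3.3, with only the groups of a comparison in the fit and Benjamini-Hochberg adjustment over all genes tested. The SE of a log2 fold change was derived from the F statistic. Differences between effects were tested as contrasts over both sets. The CPM of all 18 libraries use a single TMM scaling, while fold changes use the factors of their own comparison, so ratios of CPM can differ from them. Total counts were 20156082 to 24331577 per library. Precision rests on the spread between libraries and, for members with few counts, on counting noise as well. Oas2, for example, had 73 to 172 counts in the ADO and DNT libraries, where the common biological coefficient of variation was 2.74%. The test was also run on simulated counts with known changes. These held no outlying library and no shift with gene length, so they do not show how it behaves where the real libraries have them.

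The members, lists and tests were chosen with earlier results of these data known. Values in every library are given for the 3 members with the smallest p and the 3 with the largest log2 fold change among those past the threshold (where either group averaged 1 CPM or more) in each ligand comparison, the 3 with the smallest p in each difference of effects, and the member with the highest CPM of each role. For interferon pathway lists the rule named Ifnb1, Ifng, Ifnar1, Ifnar2, Irf7, Irf9, Socs1 and the 3 smallest p per list and ligand comparison; a further gene of that rule was taken out of its list and is not reported here. Other genes were chosen for description after their values were seen. Alternatives were RLE factors, library size only, no filter, at least 1 CPM in 3 libraries, DESeq2 1.42.0, limma-voom 3.58.1, all 18 libraries in a single fit, the replicate number as a block, leaving out each library, and, added after seeing the data, an offset for exon length. Shares of 50-base stretches of transcript found in another annotated gene are given above for Herc6, Trim30a, Trim30d, Oas1a, Ifit3 and Ifitm2. The share was also 45% for Ifit3b, 11.6% for Rtp4, 10% for Ifitm3, 8.09% for Phf11d, 7.13% for Ifit1 and 6.45% for Ifit1bl1. Counts of these genes are uncertain to that extent, and the remaining members had smaller shares than Ifit1bl1.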

Additional observations from a re-analysis of the deposited data

Results flagged for a closer look

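The effect of adenosine differed with and without the inhibitor, by edgeR's test of the difference itself, for 36 of 47 members, each lower under inhibitor. Among the members described library by library, the difference on the log2 scale was −5.36 for Ifit1bl1, −4.66 for Rsad2, −3.69 for Oasl1, −3.65 for Ifit3, −3.64 for Rtp4, −3.61 for Ifi44 and −2.81 for Ifit1. It was −2.27 for Oas3, −2.07 for Usp18, −1.94 for Trim30d, −1.82 for Rnf213, −1.61 for Ifit2, −1.51 for Zbp1, −1.50 for Helz2, −1.46 for Trim30a, −1.18 for Ifi47, −0.89 for Trim25 and −0.66 for Eif2ak2. Leaving out 1 library at a time, the difference was lost for Trim25 in 9 and for Eif2ak2 in 10 of 12 fits (adjusted p up to 0.132 and 0.105). Ifit1bl1, Ifit3 and Ifi44 had fewer than 2 CPM in each RA and R library, which limits their values. Ifit1bl1 was too low to be tested in RA over R, and Oasl1 had 8, 11 and 9 counts in RA.

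The effect of ATPgs differed from that of adenosine, by the same kind of test, for 27 members with a lower and 1 with a higher effect of ATPgs. The difference was −1.49 for Ifit2, −1.03 for Oas3, −0.92 for Trim30d, −0.81 for Zbp1, −0.79 for Rsad2, −0.79 for Oasl1, −0.77 for Trim30a, −0.69 for Ifi47, −0.68 for Rnf213, −0.42 for Eif2ak2, −0.41 for Helz2 and −0.24 for Trim25, and 0.74 for Ifitm1. WTATPgs replicate 3 moved several of these: without it the difference for Zbp1 was −1.05. In the 12 fits that each left out 1 library, the difference was lost for Oas3 in 11, for Zbp1, Trim30a and Ifi47 in 10 each and for Trim30d in 9, with adjusted p of 0.0504 to 0.0868. What sets the ligand effects apart between the sets was not tested.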

How the results depend on the processing

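With ATPgs, 9 members rose and 9 fell. In a single fit of all 18 libraries 5 of 47 rose and 10 fell (10.6% and 21.3%), where 11.2% and 9.32% of all genes did. With 1 library left out 4 to 11 rose and 6 to 20 fell, where 11.4% to 26.9% and 13.5% to 26.9% of all genes did. The medians were then −0.14 to 0.0253, the extremes of 11, 20 and −0.14 being without WTATPgs replicate 3. Zbp1 ranged over −0.13 to 0.23, reversed without WTATPgs replicate 3. With adenosine the 40 members that rose were 27 in the fit of all 18 libraries (all genes 8.95%, against 25.5%), where the single member that fell was 0 (all genes 5.41%, against 24.6%). The median of 0.45 was 0.50 by library size only, 0.44 with limma-voom, 0.43 with the length offset and 0.43 to 0.49 with 1 library left out. Under inhibitor the 16 that fell were 26 with DESeq2, 29 in the fit of all 18 libraries and 7 to 30 with 1 library left out. Of all genes 0.855% fell in the main run, 2.73% with DESeq2 and 5.56% in the fit of all 18 libraries. With 1 library left out 0.236% to 7.54% of all genes fell. The members' median was −0.58 by library size only and −0.79 to −0.71 with 1 library left out. The difference of adenosine effects had a median of −1.17 by library size only, −1.38 at 1 CPM or more and −1.36 to −1.17 with 1 library left out. The ATPgs difference had 0 higher and 12 lower in the fit of all 18 libraries, where 0.977% and 0.902% of all genes were so. With 1 library left out it had 1 to 3 higher and 19 to 41 lower, where 5.60% to 14.2% and 6.32% to 18.8% of all genes were so. In DNT over WT the fit of all 18 libraries had 1 lower (all genes 17.6%), and the median was 0.59 by library size only and 0.63 with the length offset, which reversed Ifitm3 (−0.0157). In R over DNT library size only gave 4 higher (all genes 15.1%), a median of −1.40 and reversed Samd9l (−0.0756) and Ifi47 (−0.0476). There the length offset reversed Bst2 (−0.88) and Sp100 (0.0151), and the median was −0.90 to −0.80 with 1 library left out. By library size only, 3226 of all genes rose and 2331 fell with ATPgs (2678 and 2934 with TMM), 4418 and 2850 with adenosine (3707 and 3574), and 2137 were higher and 6950 lower in R over DNT (4369 and 4719). The cause was not tested.

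Same-numbered libraries did not deviate together (correlations of −0.243 to 0.067). In WT, ADO and DNT, however, libraries of a group differed with a chi-square per degree of freedom of only 1.95 to 2.52. That leaves little deviation to correlate, so whether the numbers pair the samples cannot be told. With the replicate block 7 members rose and 9 fell with ATPgs, 40 and 1 with adenosine, and 0 and 16 under inhibitor. Total counts were even, but TMM factors were 0.597 to 0.846 in R and RA, against 1.12 to 1.19 in the other groups. Spread between libraries was uneven too, which limits the ATPgs and inhibitor comparisons more than the adenosine comparison.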
